A study of Mus musculus with 4 samples.

Results

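Non-muscle myosin II (NM II) is the motor that pulls actin filaments past each other in cells that are not muscle, and it drives cell adhesion, migration, shape change and the final step of cell division. Each molecule is built on a pair of heavy chains, which carry the motor domain and the long tail that packs into bipolar filaments, and on 2 kinds of light chain that support and regulate them. In the mouse the heavy chain is encoded by *Myh9* (NM II-A), *Myh10* (NM II-B) and *Myh14* (NM II-C). NM II-A is found in most cell types and moves actin fastest, NM II-B holds tension for longer and is abundant in mesenchyme, neurons and the fetal heart, and NM II-C is found chiefly in epithelia.

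The 3 heavy chain genes were taken by symbol from a table of 45706 genes counted by RNA-seq, and all 3 passed the filter on low values, a mean of 5 or more counts per lung, that left 18763 genes to test. The table compared left lung lobes of C57BL/6 mouse embryos at E17, 2 of them wild type and 2 homozygous for the *Myh10* missense allele L458R (Myh10L458R/L458R, here called mutant). The allele arose by ENU mutagenesis and is present in every cell of the mutant embryo, it leaves the gene in place, and no embryo received a treatment. The wild-type lungs had 23156026 and 19116971 counted reads and the mutant lungs 27573824 and 32055306. The labels name separate lungs of each genotype and give neither litter nor sex, and *Xist* was at 3916 CPM (counts scaled to library size with TMM normalization) in wild-type lung 1 and 4457 CPM in mutant lung 2 against 1.84 and 4.10 CPM in wild-type lung 2 and mutant lung 1, while *Ddx3y* of the Y chromosome was high in the latter pair (182 and 198 CPM) and below 1 CPM in the former, so each genotype held 1 lung of each kind.

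To show where the allele lies and how alike the isoforms are there, the coding sequence of 15 codons around the mutated codon is given for each gene from its principal GENCODE M21 transcript on GRCm38, 5′ to 3′ on the coding strand, with the codon of the leucine in capitals.
*Myh10*, chr11:68765143-68765187, plus strand, exon 12: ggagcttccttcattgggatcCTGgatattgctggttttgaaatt
*Myh9*, chr15:77787516-77787560, minus strand, exon 12: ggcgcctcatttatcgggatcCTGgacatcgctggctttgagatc
*Myh14*, chr7:44639242-44639286, minus strand, exon 11: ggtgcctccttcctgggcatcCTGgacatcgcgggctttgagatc
The capitals are the codon of L458R in *Myh10*, codon 451 of *Myh9* and codon 473 of *Myh14*, all reading CTG in a coding exon of 153 bp. The only single-base change that turns this codon of *Myh10* into an arginine codon is T1373G, where position 1 is the A of the start codon, at genome position 68765165. Against the *Myh10* window, that of *Myh9* differed at 10 of 45 bases and encoded 15 of 15 identical residues, and that of *Myh14* differed at 11 bases and encoded 14 of 15. Over the whole proteins, of 1960 (*Myh9*), 1976 (*Myh10*) and 1992 (*Myh14*) residues, identity was 77.8% between *Myh9* and *Myh10*, 66.2% between *Myh10* and *Myh14* and 64.2% between *Myh9* and *Myh14*.

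Few reads of full length and without mismatches could have come from more than 1 of the genes. Reads that were trimmed shorter or aligned with mismatches were not checked in this way. Of the windows of 75 bases, the read length, along each principal transcript, 48 of 7359 in *Myh9* (0.652%) and 48 of 7717 in *Myh10* (0.622%) occurred in the other gene, and none of the 6316 windows of *Myh14* occurred in a transcript of another gene. Exons of *Myh14* overlap 60 bp of *2310016G11Rik* on the opposite strand, and that gene had 1 or 2 counts in every lung. The counts are per gene, so alternatively spliced forms of a heavy chain, such as the inserts of *Myh10* and *Myh14*, were summed.

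Of the 3 genes, *Myh14* was lower in mutant lungs, *Myh10* itself did not pass the test, and *Myh9* had a smaller difference that did not pass either. With a call made where edgeR's quasi-likelihood test gave an adjusted p below 0.05, 1.34% of all tested genes were lower and 0.298% higher in mutant lungs, and of the heavy chain genes 1 of 3 was lower and 0 of 3 higher. With library totals in place of TMM, 234 genes were lower and 112 higher, against 252 and 56. The plot of CPM by gene shows the 4 lungs.

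**Figure D1:**
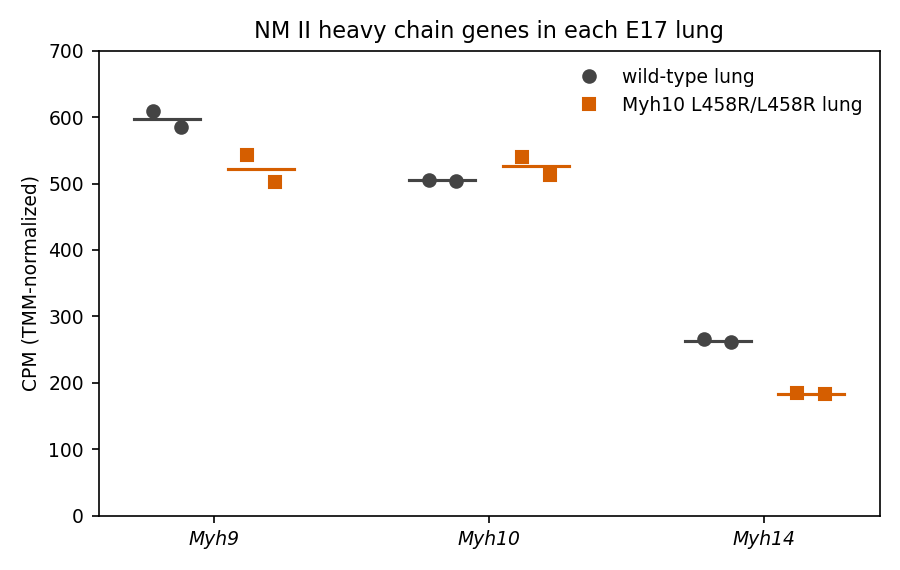
TMM-normalized CPM (vertical axis) of *Myh9*, *Myh10* and *Myh14* in each E17 lung, with circles for the 2 wild-type lungs, squares for the 2 Myh10L458R/L458R lungs and lines for the mean of each genotype. Both mutant lungs lie at 183 to 184 CPM for *Myh14*, below both wild-type lungs at 261 and 266 CPM.

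*Myh10*, the mutated gene, had 11575 and 9600 counts in the wild-type lungs and 15007 and 16513 in the mutant lungs. Scaled to library size these were 505 and 504 CPM in wild-type lungs and 539 and 513 CPM in mutant lungs. The wild-type lungs were nearly equal and both mutant lungs lay slightly above them, which 23.9% of all tested genes also did. On the log2 scale mutant lungs differed by 0.06 (SE 0.06, adjusted p = 0.662), with a 95% confidence interval from the edgeR fit of -0.07 to 0.19, or a change of -4.66% to 14.0%. The missense allele was not counted apart from the wild-type allele, so the count does not check the genotype labels.

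*Myh14*, the gene of NM II-C, had 6086 and 4967 counts in wild-type lungs and 5127 and 5895 in mutant lungs, although the mutant libraries were the larger ones. After normalization it stood at 266 and 261 CPM in wild-type lungs and at 184 and 183 CPM in mutant lungs. The groups did not overlap, and lower lungs without overlap were seen for 24.3% of all tested genes. The mean was 263 ± 3.41 CPM (SD, n = 2) in wild-type and 184 ± 0.791 CPM (SD, n = 2) in mutant lungs, and *Myh14* fell by 0.52 on the log2 scale (SE 0.04, adjusted p = 4.99e-04), to 0.698 of the wild-type level. The 95% interval of the change was -34.7% to -25.4%.

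*Myh14* ranked higher by p-value than by the size of its fall. Its unadjusted p-value of 5.91e-08 was the smallest of the 18763 tested genes, while 669 genes, *Myh14* included, had a log2 fold change at least as far below 0. The SD of *Myh14* between wild-type lungs, 3.41 CPM, was of the order of the counting error of each, 3.41 and 3.70 CPM. Between mutant lungs its SD, 0.791 CPM, was below the counting error of each, 2.57 and 2.39 CPM. The estimated biological coefficient of variation of *Myh14* was 0.0441, against 0.0715 for the common value of all tested genes. The plot of fold change against p-value places the heavy chain genes among the rest.

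**Figure D2:**
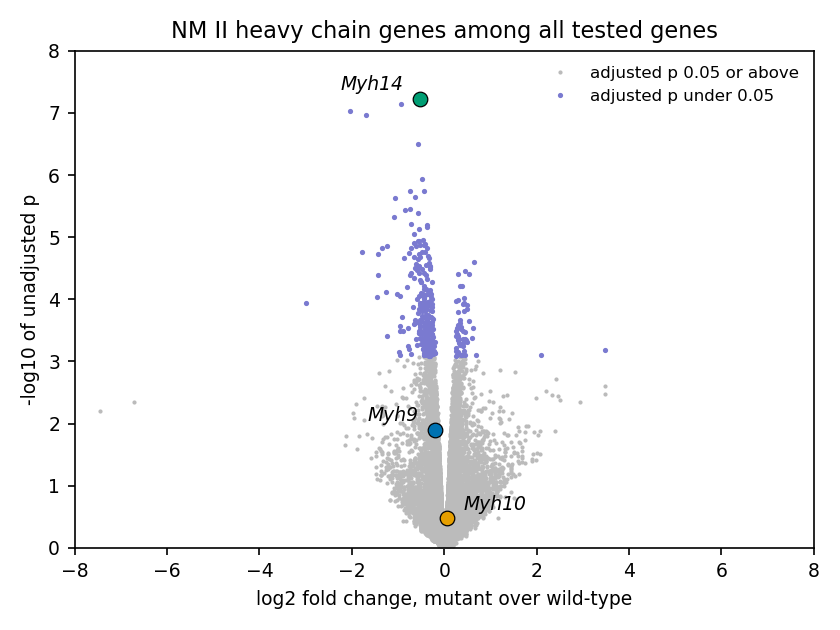
Log2 fold change, mutant over wild-type lungs (horizontal axis), against -log10 of the unadjusted edgeR p-value (vertical axis) for the 18763 tested genes, each a point, with the 308 genes at an adjusted p under 0.05 in blue and the 3 heavy chain genes as large circles. *Myh14* lies at the top at a log2 fold change of -0.52, *Myh9* at -0.19 lies below the called genes and *Myh10* at 0.06 lies near the bottom.

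*Myh9*, the gene of NM II-A, had 13967 and 11140 counts in wild-type lungs and 15098 and 16175 in mutant lungs. These were 610 and 585 CPM in wild-type lungs and 543 and 503 CPM in mutant lungs. Both mutant lungs were below both wild-type lungs, which was so for 24.3% of all tested genes. The gap between the groups was close to the spread within the mutant group. The means were 597 ± 17.4 CPM (SD, n = 2) and 523 ± 28.4 CPM (SD, n = 2), and the log2 difference of -0.19 (SE 0.07, adjusted p = 0.169) was not called. The unadjusted p of the edgeR fit was 0.0126, which 1396 genes reached or went below. *Myh9* passed when genes with few counts were kept in the test, at a log2 fold change of -0.19 (adjusted p = 0.0222).

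When lungs with the same *Xist* state were set against each other, the *Myh14* difference was of one size. Mutant lung 2 minus wild-type lung 1, the *Xist*-high lungs, gave -0.54 on the log2 scale, and mutant lung 1 minus wild-type lung 2 gave -0.50. For *Myh9* the same differences were -0.28 and -0.11, and for *Myh10* they were 0.02 and 0.10. Each is a difference between single lungs, with no test.

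To describe isoform proportions, the CPM of each gene was divided by the exon length of its principal transcript, 7433 bp for *Myh9*, 7791 bp for *Myh10* and 6390 bp for *Myh14*. On this scale of CPM per kb, wild-type lungs had 80.4 ± 2.35 (SD, n = 2) of *Myh9*, 64.8 ± 0.101 (SD, n = 2) of *Myh10* and 41.2 ± 0.533 (SD, n = 2) of *Myh14*. In mutant lungs the levels were 70.3 ± 3.82, 67.6 ± 2.39 and 28.8 ± 0.124 CPM per kb (SD, n = 2 each). *Myh14* was lowest in every lung. *Myh9* was above *Myh10* within every lung, but in mutant lungs their ranges overlapped, at 67.6 to 73.0 and 65.9 to 69.2 CPM per kb. The order of *Myh9* and *Myh10* rested on the length used. All annotated exons of *Myh9* come to 12928 bp. Per kb of all annotated exons, wild-type lungs had 46.2 CPM per kb of *Myh9*, 48.3 of *Myh10* and 36.2 of *Myh14*. On that scale the 3 genes stood at the 95.05, 95.4 and 93.1 percentile of the 18664 tested genes with a length, whose median was 4.54 CPM per kb.

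The share of *Myh10* in the heavy chain transcripts was higher in mutant lungs, that of *Myh14* lower and that of *Myh9* close to its wild-type value. *Myh14* made up 22.1% and 22.2% of the summed CPM per kb in wild-type lungs and 16.9% and 17.7% in mutant lungs. *Myh10* made up 34.4% and 35.1% in wild-type lungs and 40.5% and 40.6% in mutant lungs, and *Myh9* 43.5% and 42.7% against 42.7% and 41.7%. Means differed by -4.84 percentage points for *Myh14*, 5.77 for *Myh10* and -0.93 for *Myh9*. The difference was many times the SD within a genotype, at most 0.582 points, for *Myh14*, and likewise for *Myh10*, with SDs of at most 0.502 points. For *Myh9* it was little more than the SDs of 0.569 and 0.687 points. For each of the 3 shares the groups did not overlap. The two-sided exact permutation test over lungs gave p = 0.333 for each, the smallest that 2 against 2 lungs allow. These are shares of transcripts, and protein was not measured in these data. The paper reports that the protein of *Myh10* was strongly reduced in newborn mutant lungs, whereas its mRNA did not change significantly. The transcript shares therefore do not give the proportions of the heavy chain proteins.

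**Figure D3:**
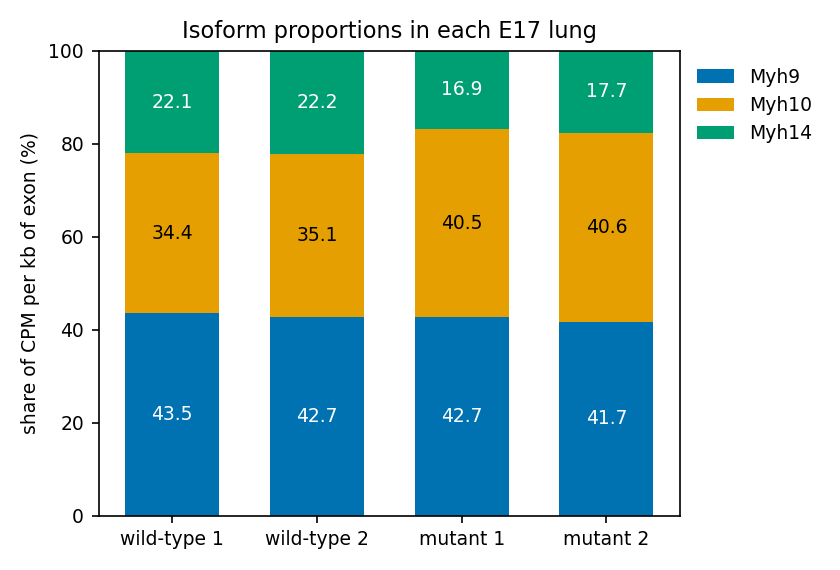
Share of each heavy chain gene in the summed CPM per kb of exon (vertical axis, percent) in each of the 4 lungs, stacked to 100%. The *Myh14* segment is 22.1% and 22.2% in wild-type and 16.9% and 17.7% in mutant lungs, and the *Myh10* segment 34.4% and 35.1% against 40.5% and 40.6%.

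The counts behind these shares were large enough that counting error was small beside the genotype difference. As a share of the raw heavy chain counts, *Myh14* held 19.2% (95% exact binomial interval 18.8% to 19.7%) of 31628 reads and 19.3% (18.8% to 19.8%) of 25707 reads in wild-type lungs. In mutant lungs it held 14.6% (14.2% to 14.9%) of 35232 and 15.3% (14.9% to 15.6%) of 38583 reads. The intervals cover counting error only, and those of the mutant lungs lay wholly below those of the wild-type lungs.

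Of the levels behind these shares, that of *Myh14* alone passed the test. Between the genotype means *Myh10* differed by 21.5 CPM, *Myh9* by -74.7 CPM and *Myh14* by -79.5 CPM. The summed level of the 3 genes was 188 and 184 CPM per kb in wild-type lungs and 171 and 162 CPM per kb in mutant lungs, a difference of -0.16 on the log2 scale. Again the groups did not overlap, with p = 0.333 from the exact permutation test. Together the 3 genes took 0.137% and 0.134% of all counted reads in wild-type lungs and 0.128% and 0.120% in mutant lungs.

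Ratios between heavy chains within a lung do not depend on how libraries are scaled. The log2 ratio of *Myh14* to *Myh10* (CPM per kb) was -0.64 and -0.66 in wild-type lungs and -1.26 and -1.20 in mutant lungs, a difference of -0.58. The ratio of *Myh14* to *Myh9* was -0.98 and -0.95 against -1.34 and -1.24, a difference of -0.33. *Myh9* over *Myh10* went from 0.34 and 0.28 to 0.08 and 0.04, a difference of -0.25. *Myh14* was thus lower against either of the other heavy chains and *Myh9* lower against *Myh10*, in both mutant lungs against both wild-type lungs. For the 3 ratios the exact permutation p was 0.333, the smallest possible.

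**Figure D4:**
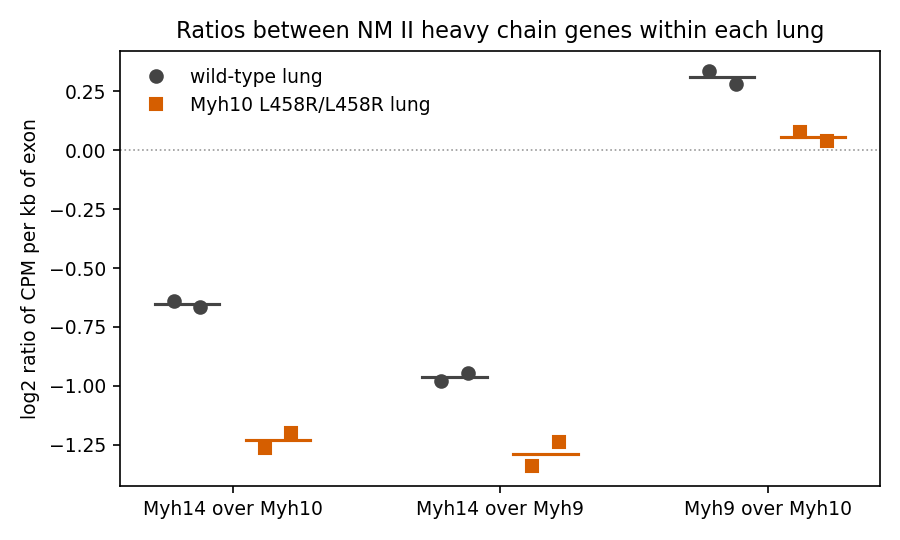
Log2 ratio of CPM per kb of exon between pairs of heavy chain genes (vertical axis) within each lung, with circles for wild-type lungs, squares for Myh10L458R/L458R lungs and lines for genotype means. For all 3 ratios both mutant lungs lie below both wild-type lungs, by 0.58 on average for *Myh14* over *Myh10*.

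The partners of the heavy chains were compared as lists, described by counts and by the median beside that of all tested genes, which was 0.00 on the log2 scale. Of the 5 light chain genes, the essential chains *Myl6* and *Myl6b* and the regulatory chains *Myl9*, *Myl12a* and *Myl12b*, none was called in either direction, and their median log2 fold change was -0.08. Their summed level was 1008 and 1006 CPM in wild-type lungs and 915 and 1003 CPM in mutant lungs, so mutant lung 2 lay next to the wild-type lungs. *Myl6*, the most abundant, had 376 ± 5.65 CPM (SD, n = 2) in wild-type and 359 ± 24.7 CPM (SD, n = 2) in mutant lungs. The log2 fold changes of the 5 genes ran from -0.11 for *Myl9* to -0.05 for *Myl12b*. Counts of *Myl12a* and *Myl12b* are less certain, because their annotated exons overlap other genes on the same strand.

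Of 14 regulators of NM II, from the RhoA GTPase and its kinases to the myosin phosphatase, 0 were called lower and 0 higher, with a median of -0.0034. The closest to the threshold was *Rhob*, a small GTPase, at 174 ± 6.41 CPM (SD, n = 2) in wild-type and 150 ± 11.4 CPM (SD, n = 2) in mutant lungs (log2 fold change -0.21, adjusted p = 0.0969). *Mylk*, the kinase of the regulatory light chain, had a log2 fold change of 0.08 (adjusted p = 0.66), and *Rock1* and *Rock2*, kinases that promote NM II activity, had 0.08 and 0.13 (adjusted p = 0.477 and 0.262). *Mprip*, which binds the myosin phosphatase, had -0.06 (adjusted p = 0.678), and *Ppp1cb*, the catalytic subunit of that phosphatase, had -0.0060 (adjusted p = 0.972), with 1908 bp of its exons overlapping another gene on the same strand, which makes its count less certain. *Cit*, citron kinase of the cleavage furrow, stood at 83.7 CPM in mutant lung 1 but at 67.3 CPM in mutant lung 2, with 63.3 and 63.7 CPM in the wild-type lungs (adjusted p = 0.199). Of 7 genes whose products bind NM II or its filaments 0 were called, with a median of -0.05. Among them *Anln*, the cytokinesis scaffold anillin, had 122 ± 1.24 against 133 ± 4.73 CPM (SD, n = 2 each, adjusted p = 0.243), and *Limch1*, *Cald1* and *Svil* differed by -0.05, 0.02 and -0.06 on the log2 scale.

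The heavy chains of muscle form the rest of class II. Of 11 such genes 7 had enough counts to be tested, 1 was called lower and 0 higher, and their median was -0.17. The called gene was *Myh6*, the cardiac alpha heavy chain, at 51.2 and 66.9 CPM in wild-type and 38.2 and 33.03 CPM in mutant lungs (log2 fold change -0.73, adjusted p = 0.0117). It moved with the cardiac marker list, of whose 7 tested genes 5 were called lower, with *Myh6* itself among them, at a median of -0.57. The others were *Myl7* (-0.65, adjusted p = 0.0127) and *Myl4* (-0.59, adjusted p = 0.0402), atrial light chains, *Tnnt2*, cardiac troponin T (-0.57, adjusted p = 0.0275), and *Ryr2*, the cardiac calcium release channel (-0.44, adjusted p = 0.0156). *Myh11*, the smooth muscle heavy chain and the most abundant of the muscle group, was at 181 ± 5.36 and 170 ± 8.54 CPM (SD, n = 2 each, log2 fold change -0.09, adjusted p = 0.398). *Myh7*, the cardiac beta chain, was at 40.4 ± 2.25 and 35.9 ± 1.995 CPM (SD, n = 2 each, adjusted p = 0.31), and *Myh7b* at 0.918 and 1.55 CPM (adjusted p = 0.25). *Myh1*, *Myh2*, *Myh4* and *Myh15* had at most 1 count in any lung. Exons of *Myh6*, *Myh7*, *Mylk* and *Krt8* overlap genes on the opposite strand, as do those of *Mprip*, which makes their counts less certain where strand was not used.

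A whole lobe holds many cell types, and in such bulk RNA fewer cells of a type and less RNA per cell cannot be told apart. Of 10 epithelial markers, 3 were called lower and 0 higher, with a median of -0.17, and 8 of the 10 had a log2 fold change below 0. The called genes were *Krt19* (log2 fold change -0.35, adjusted p = 0.0196) and *Krt8* (-0.33, adjusted p = 0.00984), keratins of simple epithelia, and *Cdh1* (-0.30, adjusted p = 0.0178), the gene of E-cadherin. *Cldn18*, a claudin of alveolar epithelium (-0.25, adjusted p = 0.0844), and *Krt18*, the keratin partner of *Krt8* (-0.24, adjusted p = 0.0691), were lower in both mutant lungs and missed the threshold. *Epcam* (-0.04, adjusted p = 0.738) and *Nkx2-1* (0.02, adjusted p = 0.881) were nearer to 0. The summed epithelial markers stood at 2414 and 2394 CPM in wild-type and 2079 and 2162 CPM in mutant lungs, led by *Cldn18* at a mean of 557 CPM, and none was at 0.

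None of the 10 epithelial markers had a log2 fold change below that of *Myh14*, the lowest being that of *Krt19*. Set against the summed epithelial markers, *Myh14* was at a log2 ratio of -3.18 and -3.20 in wild-type lungs and -3.50 and -3.56 in mutant lungs, a difference of -0.34 with no overlap. Against the mean of the 10 markers on the log2 scale the difference was -0.36. These ratios were chosen after the values had been seen. *Myh14* was therefore lower in mutant lungs also relative to these markers, by less than its own 0.52. The part of epithelial subtypes in the difference was not tested.

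Of the other marker lists, the cardiac and leukocyte lists had medians further below 0 than the epithelial list, and the mesenchymal, smooth muscle and endothelial lists had medians closer to 0. Of 10 mesenchymal markers 0 were called, with a median of -0.02 and a sum of 5720 and 5848 CPM in wild-type and 5689 and 5549 CPM in mutant lungs, led by *Col3a1* at 1560 CPM. Relative to that sum *Myh10* was higher by 0.10 on the log2 scale. Of 8 smooth muscle markers 0 were called, with a median of -0.07, and their sum was 792 and 844 CPM in wild-type and 774 and 771 CPM in mutant lungs, led by *Acta2* at 333 CPM. Relative to the smooth muscle sum *Myh10* was higher by 0.14.

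Endothelial cells use chiefly NM II-A, and of 8 of their markers 1 was called lower, *Cldn5* of the tight junction (log2 fold change -0.34, adjusted p = 0.0379), with a median of -0.13. Their sum was 1689 and 1646 CPM in wild-type and 1547 and 1500 CPM in mutant lungs, led by *Cdh5* at 362 CPM. *Myh9* over this sum differed by -0.06 between genotypes, and over the summed epithelial markers by -0.01, where the groups overlapped. The ratios of *Myh9* and *Myh10* to marker sums were not among the planned comparisons. Of 6 leukocyte markers 1 was called lower, *Lyz2* (-0.44, adjusted p = 0.0293), which type 2 alveolar cells also express, with a median of -0.20. The leukocyte sum was 264.5 and 247 CPM in wild-type and 182 and 219 CPM in mutant lungs, with *Lyz2*, at a mean of 156 CPM, its most abundant gene. The cardiac markers summed to 249 and 312 CPM in wild-type and 200 and 183 CPM in mutant lungs, led by *Actc1* at 62.7 CPM. No gene of the 6 marker lists was at 0 in every lung, and the part of these cell types in the values of the heavy chains was not tested.

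**Figure D5:**
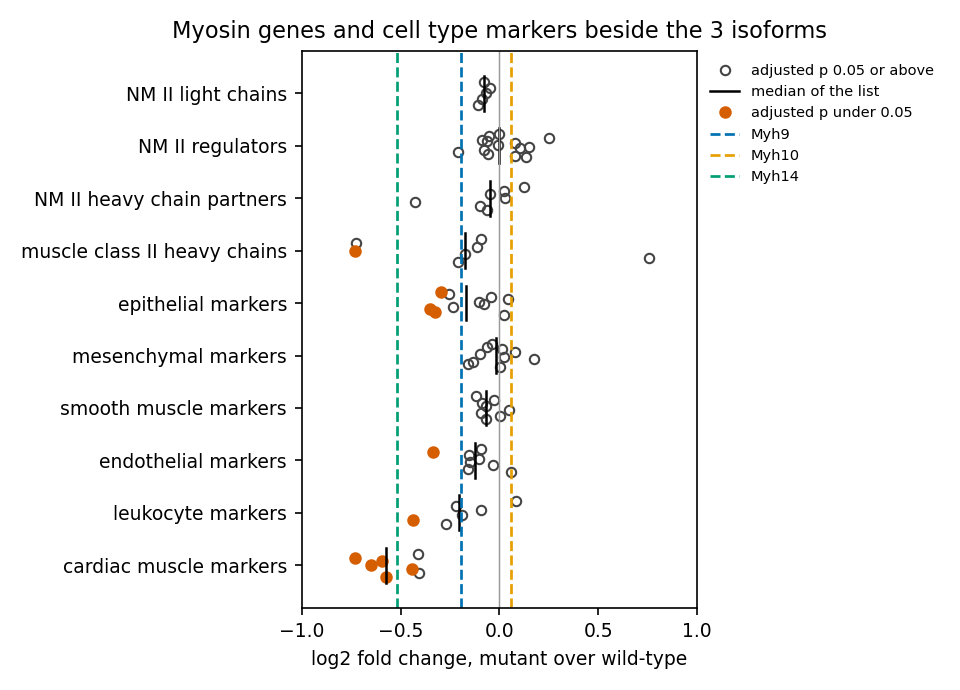
Log2 fold change, mutant over wild-type lungs (horizontal axis), of each tested gene in 4 lists of myosin genes and 6 lists of cell type markers (rows), with filled points for genes at an adjusted p under 0.05, black bars for list medians and dashed lines for the 3 heavy chain genes. The line of *Myh14* at -0.52 lies left of every epithelial marker, and only cardiac markers have a median, -0.57, beyond it.

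The genes whose levels over the 4 lungs followed a heavy chain most closely were found by the Euclidean distance between mean-centred log2 CPM, among 10978 other genes that averaged 250 or more counts. For *Myh14* these were *Pard6b* of the cell polarity complex (distance 0.0400), *Sftpb*, the gene of surfactant protein B (0.0538), the cell cycle inhibitor *Cdkn1a* (0.0665), the recycling endosome gene *Rab11fip1* (0.0727) and *Fasn*, fatty acid synthase (0.0774), against a median distance of 0.522. *Sftpb*, for example, had 820 and 797 CPM in wild-type and 573 and 588 CPM in mutant lungs. For *Myh9* the nearest genes included *Clip4*, *Eftud1*, *Atp2a3* and *Ptprf*, at distances of 0.00876 to 0.0266 against a median of 0.244. For *Myh10* they were *Vps54*, *Dync1li2*, *Nup188*, *Ddx31* and *Rad50*, at 0.00735 to 0.00991 against a median of 0.155. With 4 lungs such likeness is a description of level patterns, and a pattern as flat as that of *Myh10* lies close to those of many genes.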

How the data were processed

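The deposited values are raw counts per Ensembl gene, 1 column per lung. According to the methods and the submitters' processing notes, the authors trimmed 75-base single-end reads of stranded mRNA libraries, aligned them to GRCm38 with STAR 2.4.0a and counted reads on exons with featureCounts 1.5.1, dropping reads on several genes or regions. Whether strand was used is not given in the sources used here. Genes averaging 5 or more counts per lung were fitted with edgeR 4.0.16 in R 4.3.3 (TMM, glmQLFit, genotype as the only term), with Benjamini-Hochberg adjustment over all 18763, and the fit was tested on simulated data. Other normalizations, filters, DESeq2 1.42.0, a replicate block and leaving out each lung were tried. Lengths and positions come from GENCODE M21, which holds 45143 of the 45706 gene IDs. Shares and ratios were compared with exact permutation tests over lungs. The members and the lists were chosen with earlier results of these data known. Named are the 3 members, called list genes, up to 4 of the most abundant genes of each myosin list, the most abundant gene of each marker list (with *Rhob*, *Cit*, *Rock1*, *Myl6b*, *Krt18*, *Epcam* and *Nkx2-1*, and the untested muscle genes, named after their values were seen), and the 5 nearest profiles of each member (prior count 2), of which 1 is not reported here. With 2 lungs per genotype, p-values cover no lungs beyond these. The p-values, SEs and intervals of edgeR also rest on the other genes, because each gene's variance was moderated toward that of all tested genes.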

Additional observations from a re-analysis of the deposited data

How the results depend on the processing

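The direction of every heavy chain difference was kept under every alternative run. In the 9 fits with all 4 lungs *Myh14* lay between -0.52 and -0.50 and passed in 9 of 9 (adjusted p up to 8.66e-04), *Myh10* lay between 0.06 and 0.08 and passed in 0, and *Myh9* lay between -0.19 and -0.17 and passed in 1, with no filter on counts (-0.19, adjusted p = 0.0222). Leaving out each lung in turn, with the lone lung assumed to vary like the other genotype, gave -0.53 to -0.51 for *Myh14* (adjusted p up to 7.05e-05), 0.03 to 0.10 for *Myh10* and -0.25 to -0.14 for *Myh9*, and 206 to 1643 called genes, the highest without mutant lung 2.

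The number of called genes, 308, was 1162 with no filter, 474 with robust = TRUE and 710 with the replicate block. The labels give the lungs only a shared number, and deviations of same-numbered lungs had a correlation across genes of -0.214 (-0.0187 without chromosomes X and Y). With the replicate block the adjusted p was 1.21e-04 for *Myh14*, 0.0919 for *Myh9* and 0.603 for *Myh10*. The crossed block, chosen after seeing the data, called 415 genes.

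The difference in the share of *Myh14* was -4.37 percentage points from raw counts, -4.33 per kb of coding sequence and -5.91 per kb of all annotated exons, and that of *Myh10* was 6.44 on the last scale, which was added after seeing the data. That of *Myh9* was -1.36 from raw counts, -1.38 per kb of coding sequence and -0.523 per kb of all annotated exons. As lungs were left out, the *Myh9* difference ran from -1.42 to -0.448. The SD between lungs rested on 2 lungs per genotype. For *Myh14* it was of the order of the counting error in wild-type lungs and below it in mutant lungs.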
